A study of Mus musculus with 18 samples.

Results

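The genes described here encode the 4 subunits of DNA polymerase epsilon (Pol epsilon), Pole, Pole2, Pole3 and Pole4, together with Chrac1, the other small histone-fold protein that pairs with POLE3. They were chosen by name: each of the 5 symbols matched 1 row among the 51912 genes of the count table, and all 5 were among the 15710 genes that passed the filter on low counts. RNA was sequenced from primary mouse embryonic fibroblasts (MEFs) at passage 1, cultured with 15% serum in 5% oxygen. The cultures had 6 genotypes, Pole4+/+ or Pole4-/- combined with Trp53+/+, Trp53+/- or Trp53-/-, and each genotype has 3 libraries. No source used here ties the 3 libraries of a genotype to separate embryos, so p-values measure the spread between these libraries. The cells are primary cultures, not clones, so each library averages over whatever cell types the culture held.

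Pol epsilon copies the leading strand at the replication fork. POLE is the catalytic subunit, which carries the polymerase and the proofreading exonuclease, and POLE2 is the B subunit that ties it to the CMG helicase (CDC45, MCM2-7 and GINS). POLE3 and POLE4 are small proteins with a histone fold that bind each other, DNA and histones. POLE3 also pairs with CHRAC1 in the chromatin remodeler CHRAC, which is built on an ISWI motor, so POLE3 is shared between replication and chromatin remodeling. TRP53 is the transcription factor that answers DNA damage and replication stress, in large part by inducing Cdkn1a, whose product holds back cyclin-dependent kinases and with them the E2F factors that switch on S-phase genes. The comparisons ask how the messages of the polymerase follow the loss of 1 of its subunits, and the loss of 1 or both alleles of Trp53.

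In GRCm38, Pole (ENSMUSG00000007080) lies on the plus strand at chr5:110286306-110337474, and its first coding transcript has 49 exons. Pole2 (ENSMUSG00000020974) is on the minus strand at chr12:69201773-69228195 with 19 exons. Pole3 (ENSMUSG00000028394) is the most compact, at chr4:62522649-62525068 on the minus strand with 4 exons. Pole4 (ENSMUSG00000030042) spans chr6:82618992-82705365 on the minus strand with 5 annotated transcripts, all of which share exons of 85 and 42 bases. Chrac1 (ENSMUSG00000068391) is at chr15:73090392-73097554 on the plus strand and overlaps Ago2 on the other strand. Pole, Pole2 and Pole4 also overlap annotated antisense transcripts, and Pole and Pole2 each overlap a gene on their own strand. No source used here says whether counting used strand, so reads of overlapping genes cannot be told apart.

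RefSeq promoter windows (GRCm38.p6, 250 bases before to 50 after a start site) were at hand for Pole2, Pole3 and Pole4. They are shown because Pole2 and Pole3 were called with the loss of Trp53 in Pole4-/- cells and Pole4 was not. Each line gives the 120 bases that no GENCODE exon covers nearest to the first exon at the RefSeq start, at chr12:69228196-69228315, chr4:62525069-62525188 and chr6:82652930-82653049, all on the minus strand and written 5′ to 3′. The Pole4 stretch lies before the first exon of each coding transcript and within an intron of a longer annotated transcript.
Pole2 upstream: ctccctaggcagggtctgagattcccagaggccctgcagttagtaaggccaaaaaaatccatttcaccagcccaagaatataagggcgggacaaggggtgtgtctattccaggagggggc
Pole3 upstream: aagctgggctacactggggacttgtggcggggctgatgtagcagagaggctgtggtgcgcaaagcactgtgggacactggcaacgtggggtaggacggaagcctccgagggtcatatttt
Pole4 upstream: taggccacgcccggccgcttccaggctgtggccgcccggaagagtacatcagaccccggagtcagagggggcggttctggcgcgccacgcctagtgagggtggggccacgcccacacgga
The 8-letter forms of the E2F motif searched on both strands were TTTCCCGC, TTTCGCGC, TTTGCCGC and TTTGGCGC, and 2.28% of 32544 promoter windows of this length hold at least 1 of them. The windows of Pole2 and Pole4 each hold 1, and that of Pole3 holds none. The Pole2 match is at chr12:69228173-69228180, 11 to 18 bases after the RefSeq start, and the Pole4 match at chr6:82652901-82652908 lies before the RefSeq start but inside the first exon of a longer GENCODE transcript. Capitals mark the matched letters, which in both genes read as the reverse complement of a listed form.
Pole2 match: cggcggtgGCGCCAAAtcgcgaac
Pole4 match: tacccggcGCGGGAAAggggccga
The letters TTTGAA, the core of the CHR element of late cell-cycle genes, and CCAAT were found in none of these windows, against 17.8% and 37.4% of all windows. These matches describe letters and say nothing of binding.

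The libraries held 9535971 to 35319918 counts, and ribosomal RNA genes took from 0.968% to 42.5% of them. Trp53 stood at 90.8 ± 4.81 and 69.1 ± 4.4 CPM (SD, n = 3) in Pole4+/+ and Pole4-/- Trp53+/+ cells and at 10.7 ± 1.83 and 11.4 ± 1.15 CPM in the Trp53-/- cells, and Cdkn1a fell with it in both backgrounds (log2 fold changes -4.59 and -5.72), so the Trp53 labels match the data. CPM are counts scaled to the effective size of each library by TMM, which corrects for differences in RNA composition. Fibroblast markers summed to at least 15003 CPM in every library. Sex is not balanced: by Xist, the Pole4+/+ Trp53+/+ and Trp53-/- libraries are female, the Pole4+/+ Trp53+/- libraries are male and the Pole4-/- genotypes are mixed. Pole4+/+ Trp53-/- replicate 1 stands apart, with Xist at 857 CPM together with 7.20 CPM of Y-linked genes, where the other Xist-expressing libraries hold at most 0.302 CPM of them.

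**Figure D1:**
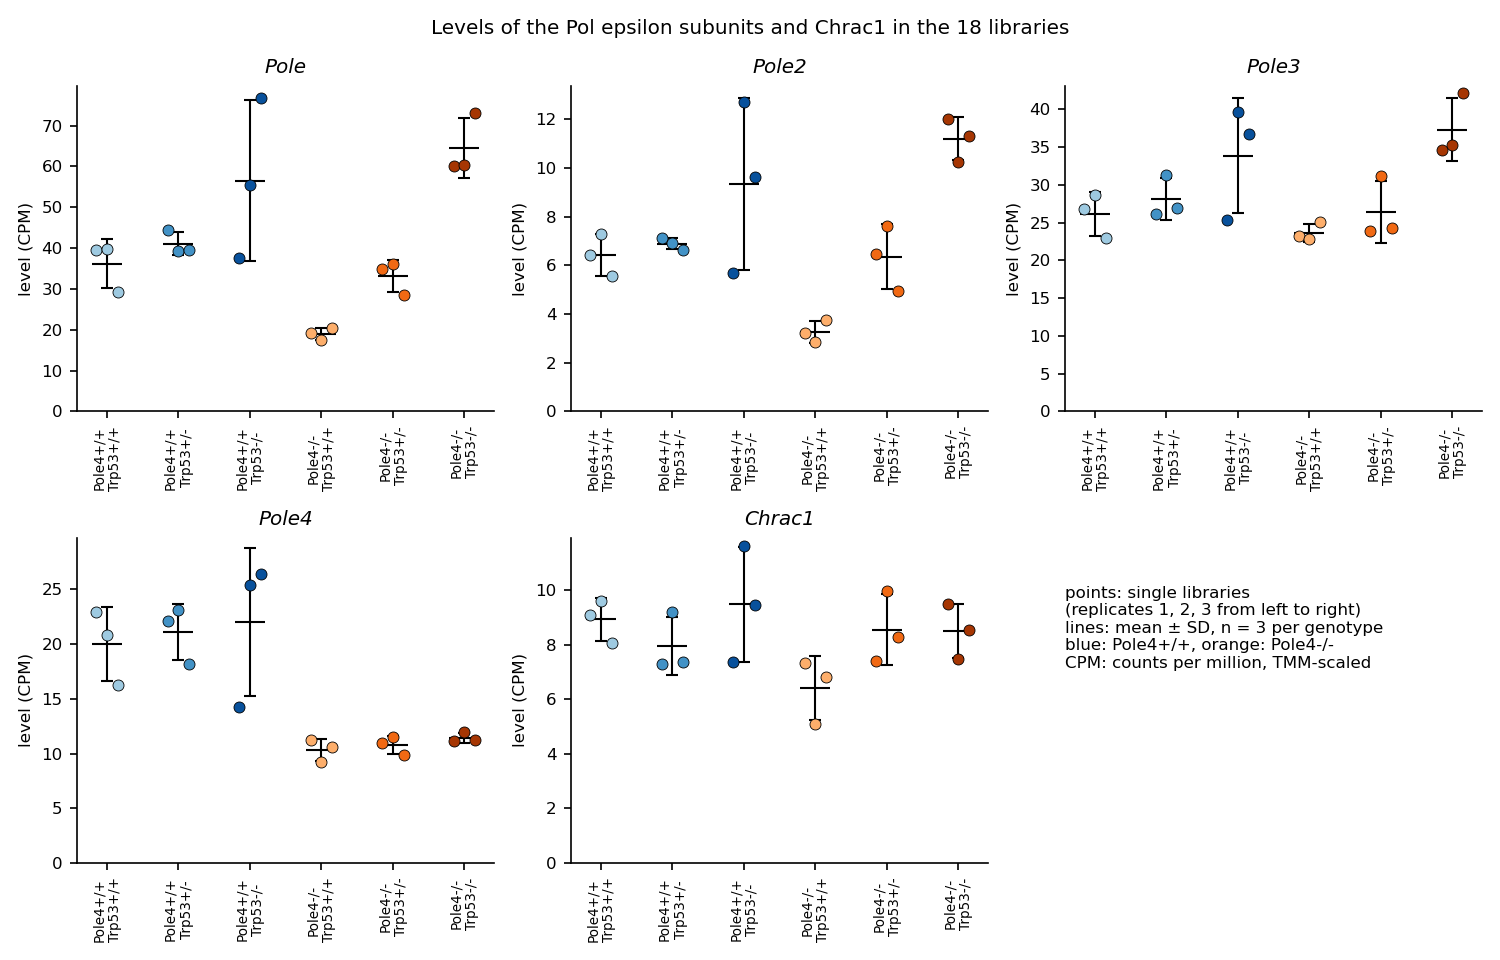
Level of each member in CPM (TMM-scaled, vertical axis from 0) in the 3 libraries of each genotype, with mean ± SD. Pole and Pole2 climb with the loss of Trp53 alleles in the Pole4-/- cells, while Pole4 sits between 9.26 and 11.99 CPM in all 9 Pole4-/- libraries.

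Pole4 itself was lower but not absent in the Pole4-/- cells. In Trp53+/+ cells, it was counted at 22.9, 20.8 and 16.3 CPM in the Pole4+/+ and at 11.2, 9.26 and 10.6 CPM in the Pole4-/- libraries. In Trp53+/- cells, the levels were 22.1, 23.1 and 18.2 CPM against 11, 11.5 and 9.84 CPM. In Trp53-/- cells, they were 14.2, 25.4 and 26.4 CPM against 11.2, 11.99 and 11.2 CPM. Every Pole4-/- library was thus below every Pole4+/+ library. Averaged over the 3 Trp53 genotypes, Pole4 fell by 0.95 on the log2 scale (SE 0.11), to 51.7% of its Pole4+/+ level, at an adjusted p of 0.00126 by edgeR's quasi-likelihood test over all genes. The background for a call, an adjusted p under 0.05, was low there: 40 genes, 0.255% of those tested, were called lower, and of the members only Pole4 was. The counts are per gene, and no source used here describes which bases the Pole4 allele lacks, so the remaining 79 to 429 counts per library cannot be placed within the gene.

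No difference of Pole4 by Trp53 genotype was called by edgeR. In Pole4-/- cells, it was 10.3 ± 0.986 CPM with Trp53+/+, 10.8 ± 0.854 CPM with Trp53+/- and 11.5 ± 0.466 CPM with Trp53-/- (SD, n = 3), and no neighbour in this order differed beyond the spread. In Pole4+/+ cells, it was 20.003 ± 3.41, 21.1 ± 2.59 and 22.0 ± 6.76 CPM in the same order. Its log2 fold change between Trp53-/- and Trp53+/+ was 0.13 (95% confidence interval -0.27 to 0.52) in Pole4+/+ and 0.14 (-0.27 to 0.56) in Pole4-/- cells, intervals that leave room for a change of moderate size.

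Loss of Pole4 lowered the catalytic and B subunits in cells with intact Trp53. Pole, the polymerase itself, was at 39.6, 39.9 and 29.2 CPM in the Pole4+/+ libraries and at 19.2, 17.4 and 20.3 CPM in the Pole4-/- libraries. Pole2 was at 6.44, 7.29 and 5.58 CPM against 3.22, 2.84 and 3.75 CPM. For neither gene did the groups overlap. Pole fell by 0.94 (SE 0.20, adjusted p 0.0244) and Pole2 by 0.99 (SE 0.25, adjusted p 0.0379) on the log2 scale, about as far as Pole4 itself, which fell by 0.95 (SE 0.19, adjusted p 0.0220). Pole4 is the gene whose loss defines the groups, so its call is no result about the members. Pole and Pole2 stand beside 2.7% of all genes called lower in this comparison and 1.29% called higher. Chrac1 also had all 3 Pole4-/- libraries (7.34, 5.09 and 6.83 CPM) below the Pole4+/+ libraries (9.10, 9.62 and 8.07 CPM), with a log2 fold change of -0.47 and an adjusted p of 0.132 that misses the threshold. Pole3 overlapped between the groups, at 22.9 to 28.6 against 22.8 to 25.0 CPM.

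When single libraries were left out, the sizes of these changes moved little and most of the calls were lost. The log2 fold change of Pole stayed between -1.07 and -0.87. The count of members called went from 3 to 1 without Pole4-/- Trp53+/+ replicate 1 and to 0 without replicate 2 or 3 of that genotype or without Pole4+/+ Trp53+/+ replicate 1 or 2, and it was also 0 with Xist as a covariate, where the adjusted p of Pole was 0.124. Calls among all genes were lost in the same fits, from 626 to 140, 18 and 12 without Pole4-/- Trp53+/+ replicate 1, 2 and 3, to 26 and 8 without Pole4+/+ Trp53+/+ replicate 1 and 2, and to 11 with the covariate. Ribosomal RNA genes took 7.11%, 24.1% and 42.5% of the 3 Pole4-/- Trp53+/+ libraries and 5.81% to 11.2% of the Pole4+/+ Trp53+/+ libraries, and their part in the result was not tested. Fibroblast markers summed to 17876 to 24389 CPM in the Pole4+/+ and 27138 to 34657 CPM in the Pole4-/- libraries of this comparison, and epithelial markers to 2.84 to 6.76 and 2.06 to 2.67 CPM, and their part was not tested either.

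With Trp53 reduced, the lower Pole and Pole2 were not called. In Trp53+/- cells, Pole stood at 41.1 ± 2.88 CPM with Pole4+/+ and 33.1 ± 4.00 CPM with Pole4-/-, and every Pole4-/- library was lower, at a log2 fold change of -0.31 (95% confidence interval -0.72 to 0.10). In Trp53-/- cells, Pole stood at 56.5 ± 19.6 and 64.5 ± 7.39 CPM, overlapping, with a log2 fold change of 0.19 (-0.21 to 0.60). No member was called by edgeR in either comparison, and Pole4 was in each the only member with an unadjusted p under 0.05 (1.07e-04 and 1.70e-04). Only 1 gene, 0.00637% of those tested, was called in either. DESeq2 called Pole4 in both, and no other member. The share of all genes called by DESeq2 there is not given here, and the edgeR share is not its background.

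**Figure D2:**
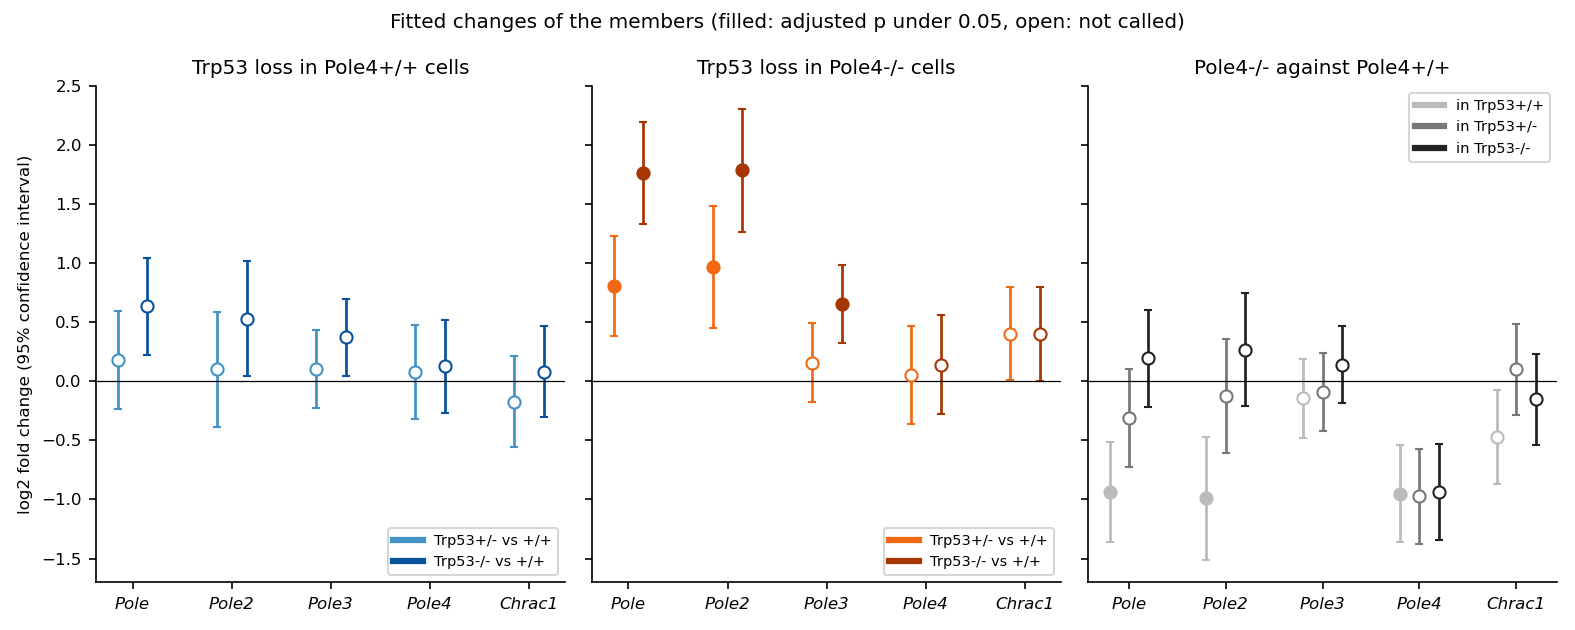
Log2 fold change of each member with its 95% confidence interval (vertical axis) for the loss of 1 or both Trp53 alleles in Pole4+/+ cells, the same in Pole4-/- cells, and the loss of Pole4 in each Trp53 genotype; filled points are called. Pole and Pole2 reach 1.76 and 1.79 in the middle panel, and Pole4 stays near -0.95 in all 3 comparisons of the right panel.

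In Pole4-/- cells, Pole rose with each Trp53 allele lost. It was at 19.2, 17.4 and 20.3 CPM with Trp53+/+, at 34.9, 36.0 and 28.6 CPM with Trp53+/- and at 60.2, 60.3 and 73.0 CPM with Trp53-/-. The 3 genotypes formed 3 separate ranges. The first allele raised Pole by 0.81 on the log2 scale (SE 0.20, adjusted p 0.0361) and the second by a further 0.96 (SE 0.19, adjusted p 0.00564), by edgeR's test. Over both steps, Pole reached 340% of its level in Trp53+/+ cells.

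Pole2 also rose at both steps. Its levels were 3.22, 2.84 and 3.75 CPM with Trp53+/+, 6.49, 7.62 and 4.95 CPM with Trp53+/-, and 12.02, 10.3 and 11.3 CPM with Trp53-/-. Again the 3 ranges did not overlap. The first step was 0.97 (SE 0.24, adjusted p 0.0374) and the second 0.82 (SE 0.23, adjusted p 0.0281) on the log2 scale, and both together took Pole2 to 346% of its starting level. That starting level rests on few counts, at 86.1, 33.8 and 28.2 in the 3 Trp53+/+ libraries.

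Of the 3 histone-fold members, only Pole3 was called for the loss of Trp53. Pole3, the partner shared by Pol epsilon and CHRAC, was at 23.2, 22.8 and 25.0 CPM with Trp53+/+ and at 23.9, 31.1 and 24.2 CPM with Trp53+/-, which overlap. With Trp53-/-, it was at 34.6, 35.2 and 42.1 CPM, above every other Pole4-/- library. Pole3 rose with the second allele only as far as the calls go (0.50, SE 0.15, adjusted p 0.0449). The first step was 0.16 with a 95% confidence interval of -0.17 to 0.49, and the difference between the steps was not tested. Over both alleles, it rose by 0.66 (SE 0.16, adjusted p 0.00357).

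Chrac1 was called at neither step. Its levels in Pole4-/- cells were 7.34, 5.09 and 6.83 CPM with Trp53+/+, 7.39, 9.96 and 8.28 CPM with Trp53+/-, and 9.48, 7.49 and 8.55 CPM with Trp53-/-. Both Trp53-deficient genotypes lay above the Trp53+/+ libraries and overlapped each other. The log2 fold changes against Trp53+/+ were 0.40 in each case, with adjusted p-values of 0.185 and 0.0979, so neither was called, and the fold change for the second allele was -0.00 (95% confidence interval -0.39 to 0.38).

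Read against the background, 2 of 5 members were called higher for the first allele, where 2.96% of all genes were, and 3 of 5 for the second, where 6.58% were. For both alleles together, 3 of 5 were called higher beside 21.8% of all genes, and none lower beside 20.8%. The 3 calls for both alleles held in all fits that left out 1 of the 6 libraries and in all other alternatives run. The first-allele calls were lost when Pole4-/- Trp53+/- replicate 1 or 2 or any of the 3 Pole4-/- Trp53+/+ libraries was left out, and under the Xist covariate (adjusted p 0.0745), while the fold change of Pole stayed between 0.75 and 0.91 without 1 library. The second-allele count of 3 went to 1 (Pole) without Pole4-/- Trp53+/- replicate 1 or 3 or Pole4-/- Trp53-/- replicate 1 or 3, and to 2 without Pole4-/- Trp53-/- replicate 2. It was 0 with library totals, which shift the median of all genes to -0.33 in this comparison. Partner genes called higher for the second allele, 52 with all libraries, numbered 23 and 17 without Pole4-/- Trp53+/- replicate 1 and 3. Without Pole4-/- Trp53-/- replicate 1, 2 and 3 they numbered 41, 41 and 19, and with library totals 5. The summed fibroblast markers moved with these groups, from 27138 to 34657 CPM in Trp53+/+ to 15003 to 18006 CPM in Trp53-/- libraries, as did those of skeletal muscle, from 140 to 149 CPM to 52.9 to 67.5 CPM. The low sums of neuronal markers (76.8 to 96.4 and 123 to 145 CPM) and epithelial markers (2.06 to 2.67 and 4.40 to 20.2 CPM) were higher in Trp53-/-. Ribosomal RNA genes took 3.75% to 15.5% of the Pole4-/- Trp53+/- and 24.7% to 30.0% of the Pole4-/- Trp53-/- libraries. The part of these markers and of ribosomal RNA in the results was not tested. In RNA from whole cultures, more cells in S phase and more message per cell cannot be told apart.

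In Pole4+/+ cells, no member was called by edgeR for the loss of 1 or both Trp53 alleles. The first allele left Pole at 44.4, 39.3 and 39.6 CPM, against 39.6, 39.9 and 29.2 CPM with Trp53+/+, a log2 fold change of 0.18 (95% confidence interval -0.23 to 0.59). With Trp53-/-, Pole was at 37.5, 55.3 and 76.7 CPM, which gives 0.63 on the log2 scale (SE 0.19, adjusted p 0.0739). Pole2, at 5.69, 12.7 and 9.62 CPM with Trp53-/-, gave 0.53 (SE 0.23, adjusted p 0.212) and Pole3, at 25.3, 39.7 and 36.7 CPM, gave 0.37 (SE 0.15, adjusted p 0.191). In each of these genes, the Trp53-/- libraries overlapped the Trp53+/+ libraries through replicate 1 alone.

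That library, the one with both Xist and Y-linked counts, had the lowest level of all 5 members among the 3 Pole4+/+ Trp53-/- libraries. Without it, Pole changed by 0.83 (adjusted p 0.00236), Pole2 by 0.77 (adjusted p 0.00794) and Pole3 by 0.52 (adjusted p 0.0130), all 3 were called, and the genes called among all tested went from 723 to 2700. With all libraries, 2.23% of genes were called higher and 2.37% lower for both alleles, 0.904% in either direction for the first allele and 0.579% for the second. Unadjusted p-values under 0.05 were found for 3, 0 and 1 of the 5 members in these comparisons, and DESeq2 called 1, 0 and 0 (Pole, for both alleles, at an adjusted p of 0.0304). Among all 15710 genes, 2984, 1610 and 1462 had an unadjusted p under 0.05 in these comparisons, which are 19%, 10.2% and 9.31% of them. DESeq2, run on 29684 genes, called 1289, 405 and 205, which are 4.34%, 1.36% and 0.691%. For the second allele, 2 members were called without replicate 1, where the genes called among all tested went from 91 to 1501. Skeletal muscle markers summed to 114 to 151 CPM in the Trp53+/+ and 42.5 to 50.5 CPM in the Trp53-/- libraries of the Pole4+/+ cells, and neuronal markers to 66.1 to 86.1 and 100.1 to 137 CPM, and their part was not tested.

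Whether the effect of Trp53 differs with Pole4 was tested as an interaction. The fold change of Pole for both alleles was larger in Pole4-/- than in Pole4+/+ cells by 1.13 on the log2 scale (SE 0.28, adjusted p 0.0524) and that of Pole2 by 1.26 (SE 0.33, adjusted p 0.0583). Neither passed the threshold, beside 0.331% of genes that did. For Pole3, Pole4 and Chrac1 the differences were 0.29, 0.02 and 0.32. The outcome for Pole and Pole2 rested close to the threshold: DESeq2, totals without ribosomal RNA genes and the fit with no filter called both, and in fits with no library left out, the adjusted p of Pole ran from 0.00612 to 0.185. Without Pole4+/+ Trp53-/- replicate 1, Pole alone was called (0.91, adjusted p 0.0492), without replicate 2 or 3 of that genotype both were, and without Pole4+/+ Trp53+/+ replicate 3 1 member was. The calls among all genes, 52 with all libraries, moved as well. DESeq2 called 1795 and the fit with no filter 339, each of 29684 genes. Totals without ribosomal RNA genes called 607, the replicate block 548 and RLE factors 252. Library totals, the Xist covariate and a fit of only the libraries compared called 0. Without Pole4+/+ Trp53-/- replicate 1, 2 or 3 there were 170, 1973 and 3242 of them, and 408 without Pole4+/+ Trp53+/+ replicate 3. There were 11 without Pole4-/- Trp53+/+ replicate 1, and 0 or 1 without any of the other 7 libraries. For the first Trp53 allele, a test added after the values were seen gave differences of 0.62 for Pole, 0.87 for Pole2 and 0.57 for Chrac1, with unadjusted p-values of 0.0396, 0.0202 and 0.0429 by edgeR and adjusted p of 0.491 for each. It called none of the 15710 genes, of which 1591 had an unadjusted p under 0.05.

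Cells without both genes were compared with wild-type cells. Pole, Pole2 and Pole3 were higher in Pole4-/- Trp53-/- than in Pole4+/+ Trp53+/+ cells, by 0.83 (SE 0.19, adjusted p 0.0138), 0.80 (SE 0.23, adjusted p 0.0353) and 0.51 (SE 0.15, adjusted p 0.0443), while Pole4 fell by 0.81 (SE 0.19, adjusted p 0.0142), and in all 4 the libraries of the genotypes did not overlap. The backgrounds were 5.42% of genes called higher and 5.35% lower. Skeletal muscle markers summed to 114 to 151 CPM in wild-type and 52.9 to 67.5 CPM in Pole4-/- Trp53-/- libraries and neuronal markers to 66.1 to 86.1 and 123 to 145 CPM, and their part in the result was not tested. Ribosomal RNA genes took 5.81% to 11.2% of the wild-type and 24.7% to 30.0% of the Pole4-/- Trp53-/- libraries, and their part was not tested either. Chrac1 differed by -0.07 (95% confidence interval -0.46 to 0.32), with overlapping libraries. The counts of calls depended on single libraries, from 4 with all libraries to 0 without Pole4-/- Trp53-/- replicate 3, to 1 without Pole4+/+ Trp53+/+ replicate 1 or 3, and to 2 without any of the other 3; the fold change of Pole then ranged down to 0.68. Scaling by library totals, which shifts the median of all genes to -0.33 in this comparison, called Pole4 only. Partner genes called higher, 41 with all libraries, fell in the same fits. They numbered 9 without Pole4-/- Trp53-/- replicate 3 and 22 without replicate 1 or 2 of that genotype. Without Pole4+/+ Trp53+/+ replicate 1, 2 and 3 they numbered 14, 29 and 7, and with library totals 1. Calls were thus lost among partner genes as well as members. All genes called numbered 1692 with all libraries, and their number in the other fits is not given here.

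**Figure D3:**
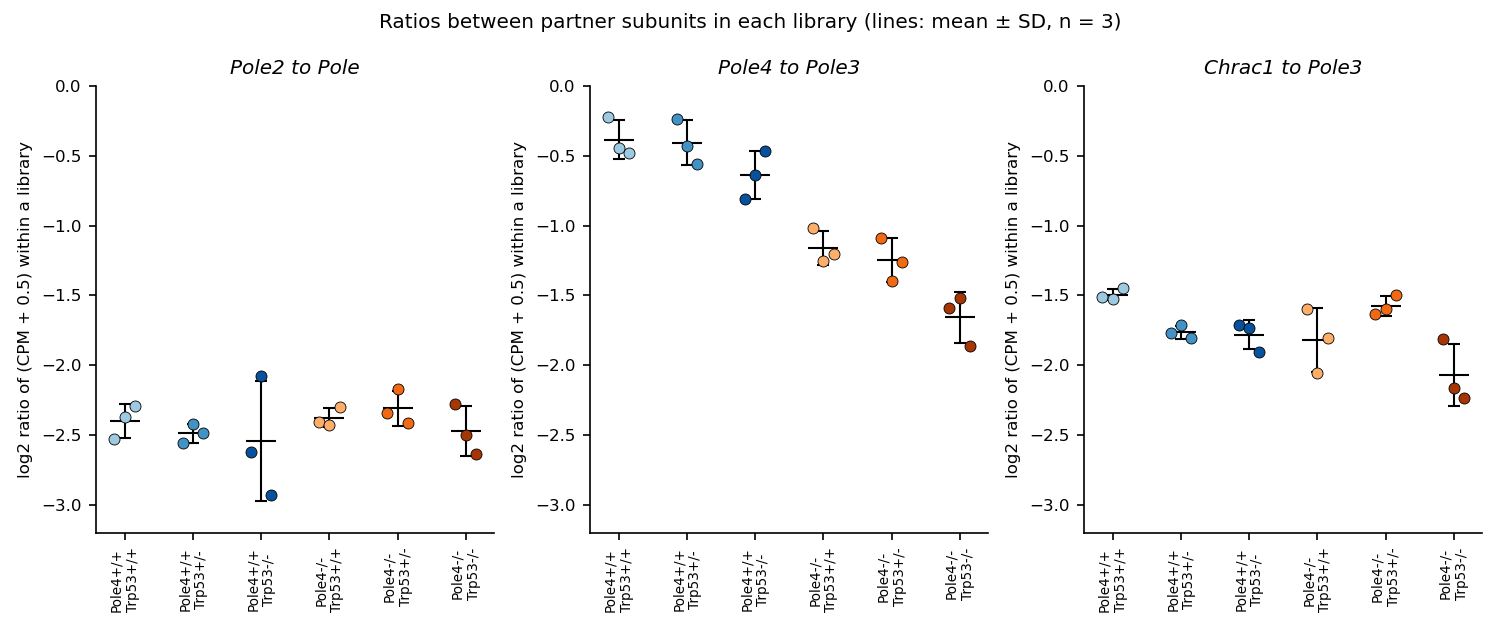
Log2 ratio of partner subunits within each library (vertical axis, CPM + 0.5) by genotype, with mean ± SD of 3 libraries. The Pole4 to Pole3 ratio is lower in every Pole4-/- library (-1.86 to -1.02) than in any Pole4+/+ library (-0.81 to -0.22).

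Ratios were taken within each library, with 0.5 CPM added to both genes, so scaling enters them only through that pseudocount. The Pole4 to Pole3 ratio, that of the histone-fold pair of Pol epsilon, averaged -1.35 ± 0.267 on the log2 scale in the 9 Pole4-/- and -0.48 ± 0.183 in the 9 Pole4+/+ libraries. The difference of -0.88 gave an exact two-sided permutation p of 4.11e-05, the smallest these 18 libraries can give, and 2.47e-04 after adjustment over the 6 ratio tests. The groups were apart within each Trp53 genotype too. In Pole4-/- cells, this ratio was -1.16 ± 0.123 with Trp53+/+, -1.25 ± 0.156 with Trp53+/- and -1.66 ± 0.183 with Trp53-/-, the last below both others in every library. In Pole4+/+ cells, it was -0.38 ± 0.140 with Trp53+/+ and -0.64 ± 0.172 with Trp53-/-, which overlap. Over both Pole4 backgrounds, the 6 Trp53-/- and 6 Trp53+/+ libraries differed by -0.37, with an exact permutation p of 0.234 (adjusted 0.351) when all labels were exchanged, a spread that holds the difference by Pole4 genotype. With labels exchanged only within each Pole4 genotype, a test added after the values were seen, the exact two-sided permutation p was 0.01, where 0.005 is the smallest possible, and 0.03 after adjustment over the 6 tests. Single libraries moved this difference from -0.51 without Pole4+/+ Trp53-/- replicate 3 to -0.23 without Pole4-/- Trp53-/- replicate 3. With the difference averaged over the Pole4 genotypes, it lay between -0.42 and -0.32 and the adjusted p of the within-genotype permutation between 0.015 and 0.05, the highest without Pole4+/+ Trp53-/- replicate 1.

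For the catalytic and B subunits, no difference in ratio passed the test with all libraries. Pole2 to Pole averaged -2.38 ± 0.135 in Pole4-/- and -2.48 ± 0.236 in Pole4+/+ libraries, a difference of 0.09 (exact permutation p 0.335). It was 0.035 without Pole4+/+ Trp53-/- replicate 3 and 0.14 without replicate 2 (exact permutation p 0.0974). Without replicate 2 and with labels exchanged within each Trp53 genotype, it was 0.17 and passed, at an adjusted p of 0.045 by exact permutation. The group means of this ratio ran from -2.54 to -2.31 while the level of Pole itself ran from 19.0 to 64.5 CPM. Chrac1 to Pole3, the CHRAC pair, averaged -1.93 ± 0.222 in Trp53-/- and -1.66 ± 0.231 in Trp53+/+ libraries, a difference of -0.27 (exact permutation p 0.0736, adjusted p 0.221, and 0.03 and 0.06 with labels exchanged within each Pole4 genotype). Without Pole4-/- Trp53+/+ replicate 2, that difference was -0.35 at an exact permutation p of 0.0130 and an adjusted p of 0.0390. The within-genotype permutation passed without that library or Pole4-/- Trp53-/- replicate 1 (adjusted p 0.02 each, exact), without Pole4+/+ Trp53+/+ replicate 2 (0.04) and without Pole4+/+ Trp53-/- replicate 2 (0.045). The other 2 tests, Pole2 to Pole by Trp53 and Chrac1 to Pole3 by Pole4, gave differences of -0.12 and -0.14 with adjusted p-values of 0.40 and 0.351 by exact permutation. The difference of Chrac1 to Pole3 was -0.089 without Pole4-/- Trp53-/- replicate 3. That of Pole2 to Pole moved with the pseudocount, to -0.07 with 0.1 CPM and -0.26 with 2 CPM (exact permutation p 0.0649), and with single libraries, to -0.03 without Pole4+/+ Trp53-/- replicate 3 and -0.21 without replicate 2.

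Per length, the small subunits were the more abundant messages. In wild-type cells, CPM per kilobase of exon were 14.5 for Pole3, 9.79 for Pole4, 8.19 for Chrac1, 4.88 for Pole and 3.77 for Pole2. Pole3 was first and, except in Pole4-/- Trp53-/- cells, Pole2 last, whether length was the union of exons or that of the first coding transcript. In Pole4-/- Trp53-/- cells, Pole4 took the last place at 5.61, below Pole2 at 6.57, and Pole at 8.69 stood near Chrac1 at 7.80, an order of these 2 that the other length turned around.

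**Figure D4:**
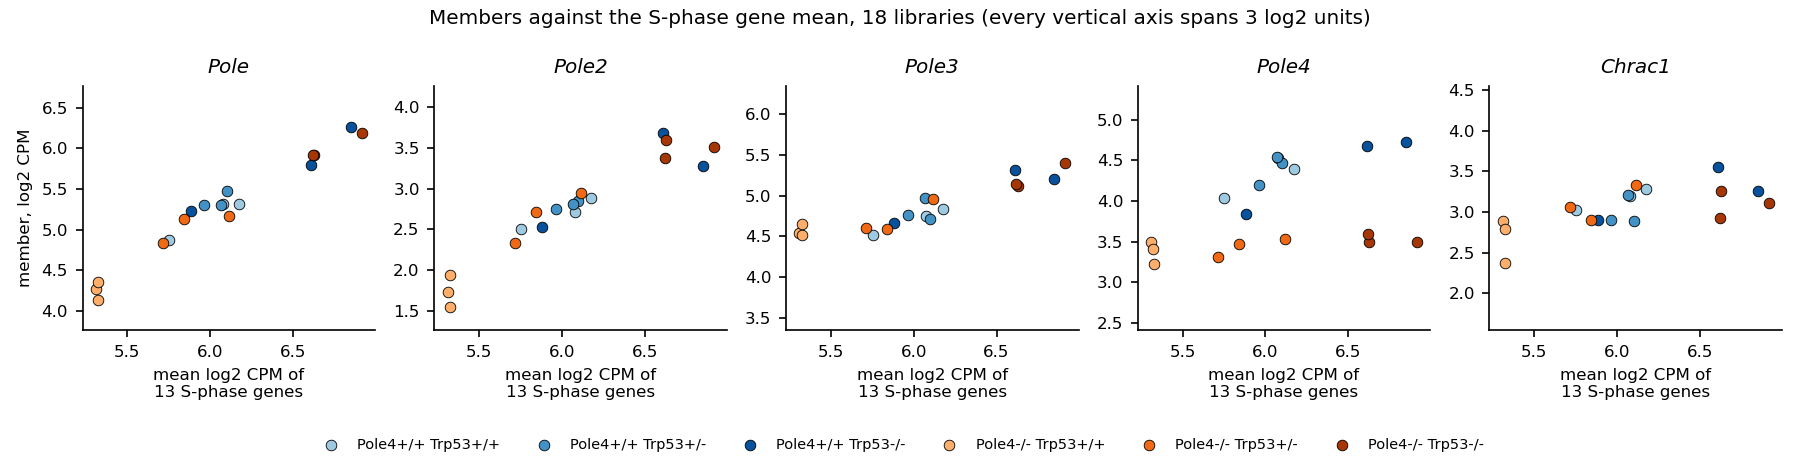
Log2 CPM of each member (vertical axis, 3 log2 units in each panel) against the mean log2 CPM of 13 S-phase genes (horizontal axis) in the 18 libraries, coloured by genotype. Pole and Pole2 rise along 1 band through all genotypes, while Pole4 forms a flat band in the Pole4-/- libraries below that of the Pole4+/+ libraries.

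The levels of Pole and Pole2 ran along with those of other S-phase genes. The mean log2 CPM of 13 S-phase and proliferation genes was 6.001, 6.04 and 6.45 in Pole4+/+ and 5.32, 5.89 and 6.72 in Pole4-/- cells with Trp53+/+, Trp53+/- and Trp53-/-. Over the 18 libraries, Pearson's r with that mean was 0.98 for Pole, 0.95 for Pole2, 0.92 for Pole3, 0.65 for Chrac1 and 0.40 for Pole4. With the mean of each genotype taken out, the values were 0.94, 0.79, 0.88, 0.56 and 0.85. Much of this rested on Pole4+/+ Trp53-/- replicate 1, without which they were 0.87, 0.47, 0.75, 0.28 and 0.59. For Pole4, the value within genotypes was 0.94 among the Pole4+/+ and 0.31 among the Pole4-/- libraries. These are descriptions over libraries that share depth and scaling, with no test.

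The genes most like each member over the 18 libraries were named by the same measure. Pole was nearest to Mki67, the proliferation marker (r = 0.994), Mcm4 of the CMG helicase (0.993) and the mitotic kinesin Kif20a (0.992). Pole2 was nearest to the deubiquitinase Usp1 (0.982), the RNA methyltransferase Mettl16 (0.982) and the splicing factor Srsf1 (0.981). For Pole3 they were Lsm3 (0.978) and Snrpd1 (0.975) of the splicing machinery and Gar1 of the box H/ACA particles (0.965). Chrac1 came closest to the RNA polymerase II subunit Polr2g (0.893), the mitochondrial Chchd3 (0.881) and the proteasome subunit Psma5 (0.876). Pole4, split by its own genotype, had no gene nearer than Nrbp1 (0.833), Prpsap1 (0.824) and Tmem121 (0.819).

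**Figure D5:**
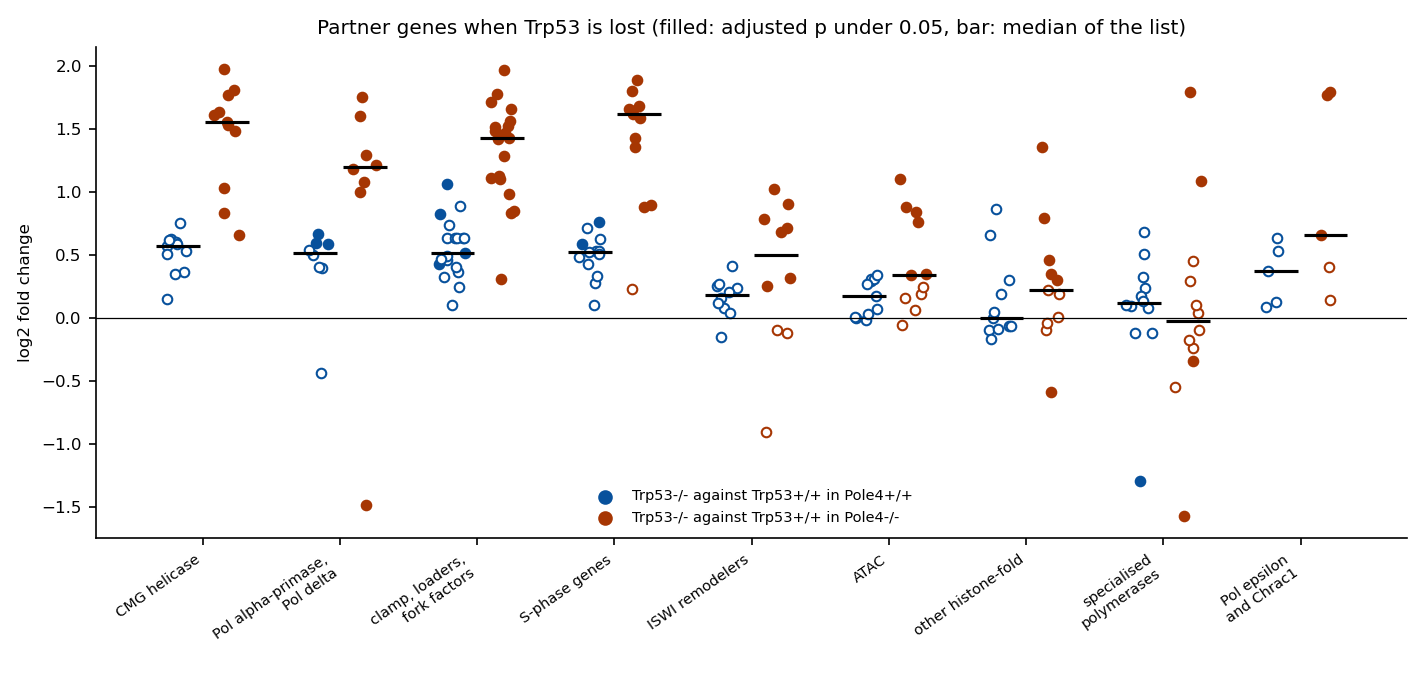
Log2 fold change between Trp53-/- and Trp53+/+ cells (vertical axis) for every tested gene of 8 partner lists and the 5 members, in Pole4+/+ (blue) and Pole4-/- cells (brown); filled points are called and bars are list medians. The CMG helicase has its median at 1.55 in Pole4-/- and at 0.57 in Pole4+/+ cells.

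Most partners of Pol epsilon at the fork were called in the same direction as Pole and Pole2. Between Trp53-/- and Trp53+/+ in Pole4-/- cells, all 11 genes of the CMG helicase were called higher, with a median log2 fold change of 1.55 beside -0.02 over all genes, of which 21.8% were called higher and 20.8% lower. They ranged from Gins4 (0.65, SE 0.10, adjusted p 1.99e-04) to Mcm5 (1.97, SE 0.26, adjusted p 5.87e-05). Of the 8 genes of Pol alpha-primase and Pol delta, the lagging-strand polymerases, 7 were called higher, up to Pola1 at 1.75, and Pold4, the small subunit of Pol delta, was called lower at -1.48 (SE 0.20, adjusted p 4.97e-05). All 19 clamp, clamp loader and fork genes were called higher, from Chtf8 at 0.31 to Mcm10 at 1.97. Of the 13 S-phase genes 12 were called higher, with a median of 1.62; E2f1, at 0.23, was not.

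The same lists were counted for each Trp53 allele in turn. For the first allele in Pole4-/- cells, 6 of the 11 CMG genes were called higher, which were the 6 MCM subunits of the helicase ring, from Mcm4 at 0.73 to Mcm5 at 1.05. Pola1 (0.85), Pold1 (0.62) and Pold2 (0.72) were called among the 8 Pol alpha and Pol delta genes, with 7 of 19 fork and 5 of 13 S-phase genes, beside 2.96% of all genes. Over the 8 lists, these and 1 further call make 22, a total that was 0 without Pole4-/- Trp53+/- replicate 2 or Pole4-/- Trp53+/+ replicate 2 or 3, 6 without Pole4-/- Trp53+/+ replicate 1, 17 without Pole4-/- Trp53+/- replicate 1 and 4 with Xist as a covariate. For the second allele, 10 of 11, 7 of 8, 16 of 19 and 10 of 13 genes of these lists were called higher, beside 6.58% of all genes. Over the 8 lists the total was 52, and it was 23 and 17 without Pole4-/- Trp53+/- replicate 1 and 3, 19 without Pole4-/- Trp53-/- replicate 3 and 5 with library totals. All genes called in either direction went from 1963 to 821, 781, 654 and 1252 in the same fits. No test compared the steps.

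In Pole4+/+ cells, the same lists had 0 of 11, 3 of 8, 5 of 19 and 2 of 13 genes called higher, beside 2.23% of all genes, with medians of 0.57, 0.52, 0.52 and 0.52 beside 0.03 over all genes. Of the 11 CMG genes, 9 had an unadjusted p under 0.05 there, as did 2984 of all 15710 genes. DESeq2 called 5 of the 11, among 1289 of 29684 genes. The called genes were Pola1 (0.60), the primase subunit Prim1 (0.66) and Pold1, the catalytic subunit of Pol delta (0.58), the clamp loader subunits Rfc1 (0.43), Rfc2 (0.52) and Rfc5 (0.63), the fork protection gene Timeless (0.83), the helicase gene Recql4 (1.06), Top2a (0.58) and Ccna2 (0.76). Over all 8 lists, 10 partner genes were called higher there and 69 in Pole4-/- cells. Without Pole4+/+ Trp53-/- replicate 1, the first count was 55, and without any of the other 5 libraries it was 3 or 4. Upon loss of Pole4 in Trp53+/+ cells, 7 of 11 CMG, 4 of 8 Pol alpha and Pol delta (Pola1, Prim1, Pold1 and Pold2, at -0.95 to -0.62), 9 of 19 fork and 7 of 13 S-phase genes were called lower, beside 2.7% of all genes, with medians from -0.90 to -0.65. That total of 29 over the 8 lists was 0 without Pole4-/- Trp53+/+ replicate 2 or 3 or Pole4+/+ Trp53+/+ replicate 1 or 2, 9 without Pole4-/- Trp53+/+ replicate 1, and 0 with Xist as a covariate.

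The chromatin partners had smaller medians. Among 10 ISWI remodeler genes, 7 were called higher between Trp53-/- and Trp53+/+ in Pole4-/- cells, beside 21.8% of all genes, with a median of 0.50. They were led by Baz1a, which encodes the ACF1 subunit of CHRAC (1.02, SE 0.22, adjusted p 0.00193), and the lowest value was that of the ISWI motor Smarca1 (-0.90, adjusted p 0.0624). Of 11 genes of the ATAC acetyltransferase, 6 were called higher, up to Sgf29 at 1.10, against the same share of all genes. Among 11 other histone-fold genes, 5 were called higher, up to Cenps of the kinetochore at 1.35 (adjusted p 0.00190), and Taf13 of TFIID was called lower at -0.59 (adjusted p 0.00289), where 20.8% of all genes were called lower. For the same loss in Pole4+/+ cells, edgeR and DESeq2 called none of these 3 lists' genes, and 2 of each list had an unadjusted p under 0.05, beside 2984 of all 15710 genes (19%). For the loss of Pole4 in Trp53+/+ cells, edgeR called none, with 5, 4 and 4 at an unadjusted p under 0.05, and DESeq2 called 2, 3 and 1 lower. Of all 15710 genes, 4101 (26.1%) had such a p in this comparison. DESeq2 called 1589 of 29684 genes (5.35%) in either direction.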

How the data were processed

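RNA of primary MEFs was sequenced as 18 paired-end libraries. The authors aligned reads with STAR 2.5.2 to GRCm38 and counted them per gene with RSEM 1.3.0, per the labels. The values used here are the deposited expected counts, before any normalization, in which RSEM divides reads that match several genes; 6.14% of values were not whole, and they were rounded. Symbols, exons and positions came from GENCODE vM21 (GRCm38) and promoters from RefSeq. Of the genes, 15710 passed filterByExpr.

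All libraries were fitted together in R 4.3.3 with edgeR 4.0.16 (TMM, 1 mean per genotype, robust quasi-likelihood fit, 12 residual degrees of freedom). P-values were adjusted by Benjamini-Hochberg over all genes tested, and a gene was called under 0.05. The SE is the fold change over the square root of F. Log2 CPM used a prior count of 2, and ratios a pseudocount of 0.5 CPM with exact permutation tests in scipy. The fit was tested on simulated data, where estimates were unbiased and few unchanged genes were called, but many of the smaller changes put into those data were missed with 3 libraries a group; a requirement on their recovery that the fit first failed was dropped. A gene that was not called is therefore not shown to be unchanged. Genes named beyond the 5 members are Trp53 and Cdkn1a, the highest and lowest gene of each partner list in Trp53-/- against Trp53+/+ Pole4-/- cells and the called ones where at most 5 of a list were, the 3 genes most correlated with each member, and called neighbours of Pole4. Alternatives were DESeq2 1.42.0, other scalings, no filter, fewer libraries, the replicate number as a block, Xist as a covariate and leaving out each library. The members and lists were chosen with earlier results of these data known. The labels do not say that a replicate number marks a shared litter or batch. Deviations of same-numbered libraries from their genotype means correlated at a median of 0.098, against -0.060 for other numbers. All 3 such correlations were over 0.1 in 3 of 15 pairs of genotypes. Of these, Pole4-/- against Pole4+/+ in Trp53+/- and Trp53-/- against Trp53+/- in Pole4+/+ are comparisons made here. The values given for them come from the fit without pairing. The replicate block, run as an alternative, changed no call of a member in either. The authors' own DESeq2 results were not used.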

Additional observations from a re-analysis of the deposited data

How the results depend on the processing

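Of the comparisons, Trp53-/- against Trp53+/+ in Pole4-/- cells had 3 called members (Pole, Pole2 and Pole3) and Trp53+/- against Trp53+/+ in Pole4+/+ cells had 0 under all alternatives run. DESeq2 called 1 member in Trp53-/- against Trp53+/+ in Pole4+/+ cells and 1 each for the loss of Pole4 in Trp53+/- and Trp53-/- cells, where edgeR called 0, and 2 for the interaction. Totals without ribosomal RNA genes called 1 in Trp53-/- against Trp53+/+ in Pole4+/+ cells and 2 for the interaction, and no filter called 2 for the interaction. With library totals, the median log2 fold change of all genes reached a size of up to 0.44. That scaling called 0 in place of 3 members for the second Trp53 allele in Pole4-/- cells. It called 3 in place of 1 for the loss of Pole4 on average, and 1 in place of 4 for both losses. The Xist covariate called 0 in place of 2 for the first Trp53 allele in Pole4-/- cells, 0 in place of 3 for the loss of Pole4 in Trp53+/+ cells, and 2 in place of 4 for both losses.

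Leaving out 1 library gave 0 to 3 called members for Trp53-/- against Trp53+/+ in Pole4+/+, 0 to 2 for the second allele in Pole4+/+, 0 to 2 for the first and 1 to 3 for the second allele in Pole4-/- cells (1 without Pole4-/- Trp53+/- replicate 1 or 3 or Pole4-/- Trp53-/- replicate 1 or 3), 0 to 3 for the loss of Pole4 in Trp53+/+, 0 to 1 in Trp53-/- and 1 to 3 on average (the highest without Pole4+/+ Trp53-/- replicate 1 in both), 0 to 2 for both losses and 0 to 2 for the interaction. With labels exchanged only within each genotype of the other gene, the Pole4 to Pole3 difference by Trp53 (-0.37) passed the threshold. The Chrac1 to Pole3 difference by Trp53 lay between -0.35 and -0.21.

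Partner genes called higher in Trp53-/- against Trp53+/+ Pole4+/+ cells numbered 10, and 2 with library totals, 26 with totals without ribosomal RNA genes, 0 with only the libraries compared, 24 with DESeq2 and 3 to 55 without 1 library. For the first Trp53 allele in Pole4-/- cells they numbered 22, and 58, 43, 50 and 39 in the same order, 36 with no filter, 4 with the Xist covariate and 0 to 25 without 1 library. Those lower upon loss of Pole4 in Trp53+/+ cells numbered 29, and 60, 53, 58 and 46, 0 with the covariate and 0 to 40 without 1 library. Those higher upon both losses numbered 41, and 1 with library totals, 35 with the covariate and 7 to 29 without 1 library. With the replicate block, the members called were as many as without it in all 12 comparisons (3 for Trp53-/- against Trp53+/+ in Pole4-/- cells), and in 62.2% of 45 matches of a library with another genotype its best correlation was with its own number, where 33.3% is the chance share.

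Signs turned only in values that were not called. With library totals, these were Pole (-0.21), Pole2 (-0.11) and Pole3 (-0.25) upon loss of Pole4 in Trp53-/- cells, Pole4 for the second allele in Pole4-/- cells (-0.24) and its interaction (-0.11, and -0.0029 with totals without ribosomal RNA genes). With the Xist covariate, they were Chrac1 for the first (0.10) and second (-0.0097) allele in Pole4+/+ cells, for the second in Pole4-/- cells (0.0035, 0.0080 with the replicate block, 7.23e-04 with DESeq2), upon loss of Pole4 in Trp53+/- cells (-0.089) and upon both losses (0.012). Without 1 library, Pole4 ranged from -0.038 to 0.34 for both, -0.050 to 0.19 for the first and -0.11 to 0.27 for the second allele in Pole4+/+, from -0.016 to 0.15 for the first in Pole4-/- cells, and from -0.22 to 0.16 in the interaction. Chrac1 ranged from -0.10 to 0.21 for both alleles in Pole4+/+, from -0.13 to 0.12 for the second in Pole4-/-, from -0.019 to 0.22 and from -0.31 to 0.032 upon loss of Pole4 in Trp53+/- and Trp53-/- cells, and from -0.16 to 0.014 upon both losses. Upon loss of Pole4, Pole2 in Trp53+/- cells ranged from -0.27 to 0.035, Pole and Pole3 in Trp53-/- cells from -0.025 to 0.47 and from -0.029 to 0.28, and Pole3 on average from -0.086 to 0.014. The causes of these changes were not tested.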

Other observations

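Among the specialised polymerases, which repair DNA or copy past damage, the counts of calls lay close to those of all genes. Of 12 tested, 2 were called higher and 2 lower between Trp53-/- and Trp53+/+ in Pole4-/- cells, where 21.8% and 20.8% of all genes were, with a median log2 fold change of -0.03. Polq, the polymerase of theta-mediated end joining, was the highest at 1.79 (SE 0.20, adjusted p 1.49e-05 by edgeR) and Polk, a translesion polymerase of the Y family, the lowest at -1.57 (SE 0.10, adjusted p 4.21e-08). Polh, of the same family, was called higher at 1.09 and Rev1 lower at -0.34. Upon loss of Pole4 in Trp53+/+ cells, Polq (-0.88) and Polh (-0.63) were called lower and Polk (0.36) higher, beside 2.7% of all genes lower and 1.29% higher. Polq and Polk were not called without either of Pole4+/+ Trp53+/+ replicates 1 and 2 or any Pole4-/- Trp53+/+ library, and Polh was called among these 5 fits only without Pole4-/- Trp53+/+ replicate 1. With the Xist covariate none of them was called, and with library totals Polk was at 0.04. Its call was lost as well with totals without ribosomal RNA genes (0.33, adjusted p 0.0531 by edgeR) and with no filter (0.29, adjusted p 0.149). Polk was also the only one of the 12 called by edgeR for the same loss in Pole4+/+ cells, at -1.30.

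Of the 20 tested genes that flank Pole4 on chromosome 6, 10 on each side, only the mitochondrial ribosomal protein gene Mrpl19 was called in any comparison of Pole4-/- with Pole4+/+ cells. In Trp53+/+ cells, its log2 fold change was -0.65, at an adjusted p of 0.0366 by edgeR, beside 626 genes (3.98% of all tested) called in either direction there. The call was lost without Pole4+/+ Trp53+/+ replicate 1 or 2, without any Pole4-/- Trp53+/+ library and with the Xist covariate, while the fold change stayed between -0.71 and -0.60 without 1 library. In those fits, 8 to 140 genes were called in all. With Trp53+/- and Trp53-/-, its values were -0.18 and -0.03, neither called.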
